A study of Homo sapiens with 17 samples.

Results

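The genes described here encode 9 surface and related antigens of B lymphocytes: CD79A, CD79B, MS4A1, CD22, CD72, CD37, CD38, CR2 and FCRLA. They were taken as a named list, and each was found once by its Ensembl identifier among the 63677 genes of the count files. RNA-seq read counts were available for 15 libraries of 2 established human lymphoma lines, Karpas-422 and WSU-DLCL2, both grown from patients with large B cell lymphoma.

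The libraries formed 5 groups of 3: Karpas-422 untreated, Karpas-422 exposed to A-485 for 48 h, WSU-DLCL2 exposed to A-485 for 48 h, WSU-DLCL2 untreated, and WSU-DLCL2 clones 1, 2 and 3 labelled BCL11A knockout. A-485 is a small molecule that inhibits the acetyltransferase activity of p300 and CBP. BCL11A is a zinc-finger transcription factor expressed in B cells. The labels name no solvent for the untreated groups except that the word DMSO appears for replicate 3 of untreated WSU-DLCL2. That replicate has a title of an untreated sample and a treatment entry naming A-485, so its group follows the title, and values without that library are given beside the results of its group. Each clone is a single edited line, and no unedited clone is among the groups. The labels do not say whether replicates came from separate cultures, so a p-value here reflects only how much these libraries vary, and that variation may be technical. In bulk RNA, fewer cells carrying a transcript and less of that transcript per cell cannot be told apart.

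A B cell senses antigen through a membrane immunoglobulin held in complex with CD79A and CD79B, whose cytoplasmic tails carry the tyrosine motifs that start signalling. MS4A1 encodes CD20, a tetraspanning membrane protein and the target of rituximab. CD22 and CD72 are inhibitory co-receptors that recruit the phosphatase SHP-1, while CR2 (CD21) binds complement fragments and is part of a co-receptor that lowers the threshold for activation. CD37 is a leukocyte tetraspanin, CD38 is an ectoenzyme that consumes NAD and is high on plasma cells and germinal centre B cells, and FCRLA is an Fc receptor-like protein that is retained inside B cells. Several of these proteins are targets of antibodies or drug conjugates in lymphoma.

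Total counts assigned to genes were 7792197 to 8897051 in Karpas-422 with A-485, 6949770 to 8186582 in untreated Karpas-422 and 6689320 to 7086106 in WSU-DLCL2 with A-485. They were 21233752 to 37286727 in untreated WSU-DLCL2 and 29669098 to 34904926 in the clones. The 9 shallower libraries also differed in kind, since 43.0% to 55.5% of their reads had no unique alignment, compared with 7.73% to 9.24% in the 6 deeper ones. Within Karpas-422 the share was 54.5% to 55.5% untreated and 48.8% to 49.0% with A-485. All 9 listed B cell markers had counts in all 5 groups. Of the T cell markers, CD3G was at 595 CPM (counts scaled to one common total of counts in genes) in untreated Karpas-422, with CD2 and CD7 at 0. There 3 of the 5 T cell markers found had counts, and the sum per library was 633 to 674 CPM. Of the fibroblast markers, DCN was at 398 CPM in untreated Karpas-422, 186 CPM there with A-485, 17.5 CPM in untreated WSU-DLCL2 and 40.6 CPM in the clones, while COL3A1 was at 0 in all groups. The epithelial and erythroid markers were at 0 in all 9 shallower libraries. BCL11A itself was at 46.8, 45.7 and 73.5 CPM in untreated WSU-DLCL2 and at 58.8, 69.6 and 51.9 CPM in clones 1, 2 and 3. Its log2 fold change in the clones was 0.13 ± 0.21 (SE), with an adjusted p of 0.915 by edgeR's quasi-likelihood test, and 0.37 ± 0.12 with an adjusted p of 0.177 without untreated replicate 3, so the RNA level does not check the knockout label.

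Upstream sequences are shown for 3 of the genes because CD22 and FCRLA fell together with A-485 in Karpas-422 while CD79A did not pass the test there. They come from RefSeq on GRCh38.p14 and hold the 250 bases before each gene's start, from 5′ to 3′. Promoter entries matched 6 of the 9 genes: FCRLA, CR2, CD38, CD72, CD22 and CD79A. Capitals mark the motifs found.
FCRLA promoter (chr1:161706979-161707228, + strand): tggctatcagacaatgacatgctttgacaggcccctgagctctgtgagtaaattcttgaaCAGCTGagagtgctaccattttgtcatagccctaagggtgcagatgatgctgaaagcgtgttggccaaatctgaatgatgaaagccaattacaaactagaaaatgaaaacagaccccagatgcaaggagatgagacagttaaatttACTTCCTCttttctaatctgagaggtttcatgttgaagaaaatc
CD22 promoter (chr19:35328937-35329186, + strand): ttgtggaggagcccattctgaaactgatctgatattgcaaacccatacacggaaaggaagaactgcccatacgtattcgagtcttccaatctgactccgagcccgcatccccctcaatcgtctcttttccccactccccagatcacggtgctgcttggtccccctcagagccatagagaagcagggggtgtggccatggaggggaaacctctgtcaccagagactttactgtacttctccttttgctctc
CD79A promoter (chr19:41877029-41877278, + strand): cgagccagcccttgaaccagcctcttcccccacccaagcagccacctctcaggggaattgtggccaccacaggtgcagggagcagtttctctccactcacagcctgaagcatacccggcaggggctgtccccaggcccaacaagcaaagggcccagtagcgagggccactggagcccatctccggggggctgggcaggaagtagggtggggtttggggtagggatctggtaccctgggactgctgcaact

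Both strands were searched for ATGCAAAT (the octamer bound by OCT factors), GAGGAAGT (an ETS motif of the PU.1 kind), CAGCTG (an E-box), TCCCNNGGG (a motif of the EBF kind) and TATAAA (the TATA box). Of the 6 windows, only that of FCRLA held any of them. It had CAGCTG with its first base 190 bases before the start and GAGGAAGT on the minus strand, 44 bases before the start. Across 35116 promoter windows of the same length, 14.0% held CAGCTG and 2.17% held GAGGAAGT. The octamer was in 1.63% of these windows, TCCCNNGGG in 7.84% and TATAAA in 10.7%. A match is a description of letters and not a measured binding site.

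The genes spanned a wide range of RNA levels, which were ordered per kilobase of exon within the deeply sequenced WSU-DLCL2 groups. The length counted every annotated exon base. Among the genes ordered below, the share of these bases in only 1 transcript ran from 25.3% for MS4A1 to 75.3% for CD38. The order under another length was not tested. MS4A1 had the highest level in untreated WSU-DLCL2, at 599 ± 150 CPM per kilobase (SD, n = 3), followed by CD79A at 356 ± 91.6. CD22 at 189 ± 11.4, CD79B at 149 ± 69.9 and FCRLA at 121 ± 33.7 came next. The ranges of CD22 and CD79B overlapped, as did those of CD79B and FCRLA. CD37 was at 37.1 ± 0.919, CD72 at 14.4 ± 9.98 and CD38 at 9.80 ± 7.55 CPM per kilobase, and the ranges of CD72 and CD38 overlapped. The clones gave the same order, from 523 for MS4A1 through 275 for CD79A, 185 for CD22, 131 for CD79B, 128 for FCRLA, 32.7 for CD37 and 5.95 for CD72 to 4.17 CPM per kilobase for CD38. There the neighbours whose ranges overlapped were CD79B with FCRLA and CD72 with CD38. Without untreated replicate 3 the untreated order was the same, from 513 for MS4A1, 303 for CD79A and 184 for CD22 to 8.63 for CD72 and 5.44 for CD38.

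CR2 was not detected beyond a single read. It had 0 counts in 14 libraries and 1 count in clone 2, among 259387172 counts in all. A count of 0 allows up to 0.146 CPM over the WSU-DLCL2 A-485 libraries and 0.0324 CPM over untreated WSU-DLCL2, where 3 counts are the floor. These floors cover counting error only. CR2 entered no test.

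**Figure D1:**
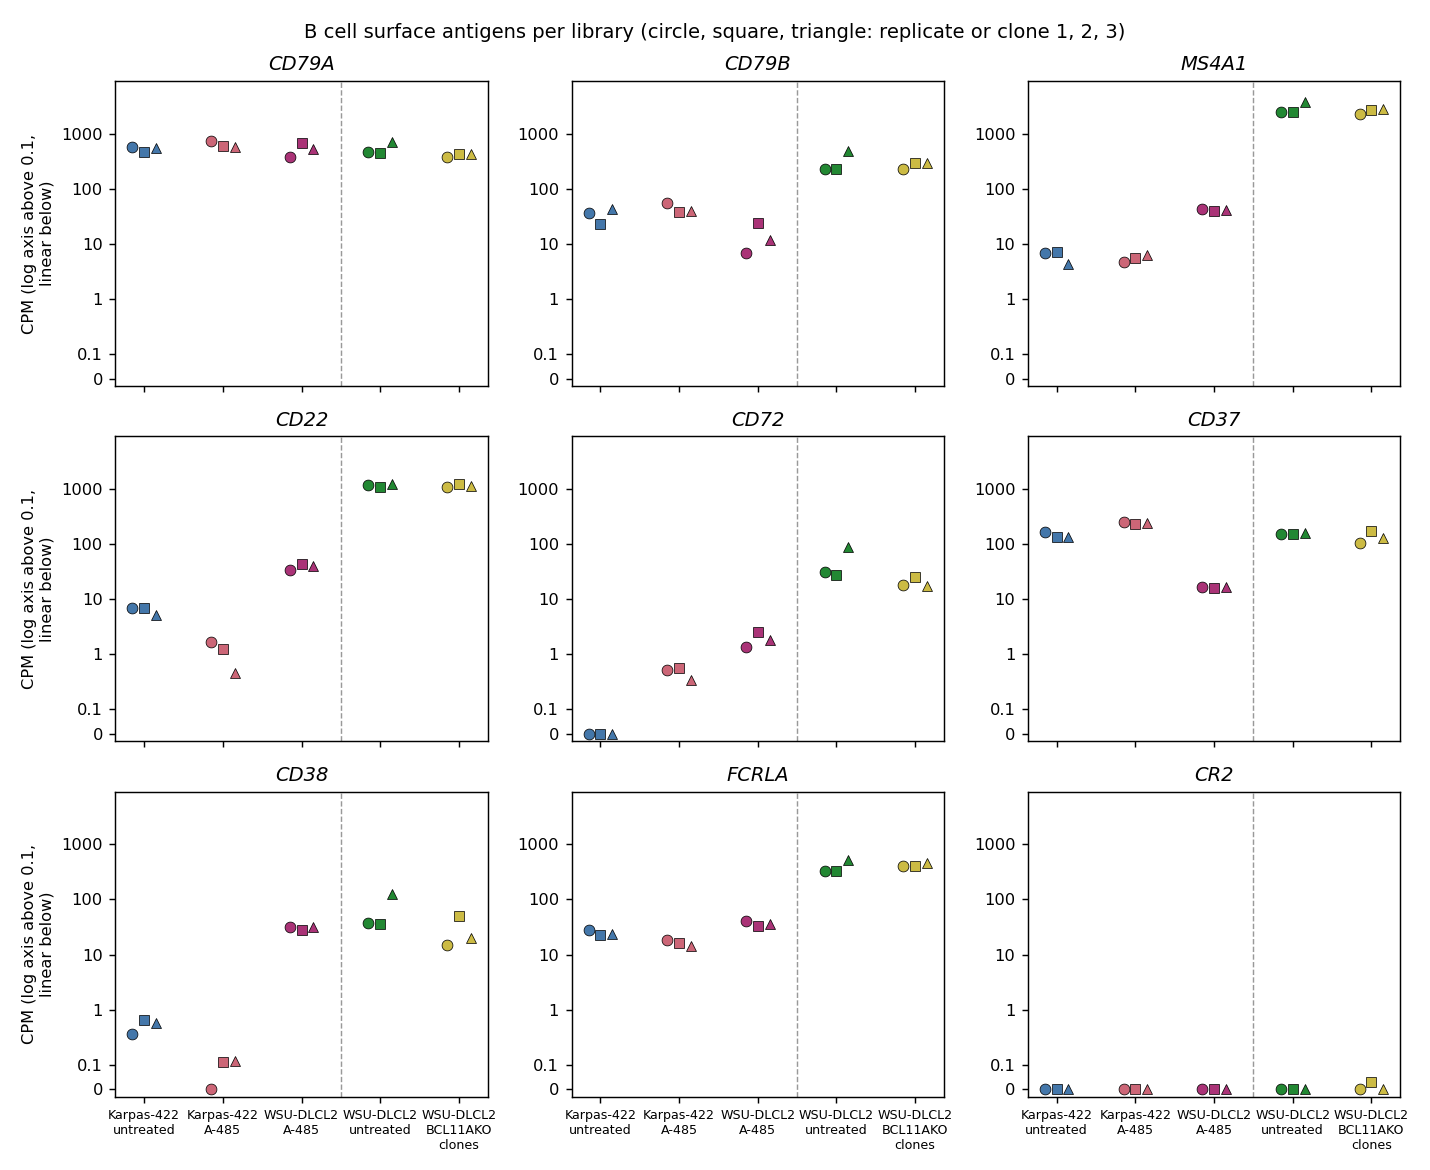
CPM of each of the 9 genes in each library, on an axis that is logarithmic above 0.1 and linear below, with the shallower libraries left of the dashed line and the deeper ones right of it. CD79A stays between 377 and 729 CPM in all 15 libraries. Among the shallower libraries MS4A1 is at 4.32 to 7.04 CPM in Karpas-422 and at 39.2 to 42.9 CPM in WSU-DLCL2 with A-485. It reaches 3760 CPM in the deeper WSU-DLCL2 libraries, which differ in kind from the shallower ones.

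The first comparison asked how inhibition of p300 and CBP for 48 h changed these genes in Karpas-422. CD22, FCRLA and MS4A1 fell with A-485, CD37 rose, and CD79A and CD79B did not pass the test. Of the 9 genes, 6 had enough counts to be tested, and 3 of these were lower and 1 was higher at an adjusted p under 0.05 (edgeR's quasi-likelihood test, Benjamini-Hochberg over 11846 genes). Across all genes tested, 71.4% were called, 37.6% as higher and 33.7% as lower, so a call in itself was common in this comparison. The values below are CPM scaled by TMM, edgeR's correction for composition, whose factors were 1.15 to 1.16 with A-485 and 0.845 to 0.908 without. The median log2 fold change of all genes was 0.08 with TMM and 0.49 with library sizes alone, and the latter scaling called 6465 genes higher and 2290 lower where TMM called 4459 and 3998. The treated and untreated libraries also separated by the share of reads outside genes, at 8.25% to 8.91% with A-485 and 3.61% to 4.54% without, by the share without a unique alignment and by DCN, given above. The part of these differences in the results was not tested. The median of the 6 genes was -0.35 with TMM and 0.05 with library sizes alone.

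Of the 6 tested genes, the inhibitory co-receptor CD22 had the largest change under TMM scaling. Its counts were 57, 54 and 36 in untreated replicates 1 to 3 and 13, 11 and 4 with A-485. In TMM-scaled CPM these were 7.68, 8.20 and 6.09 without and 1.45, 1.08 and 0.406 with the inhibitor. Every treated library lay below every untreated one. The log2 fold change was -2.91 ± 0.30 (SE), a 7.52-fold lower mean level, with an adjusted p of 1.07e-06 by edgeR (n = 3 per group), and it was -2.51 with library sizes alone. CD22 shares 1078 bases on the same strand with U62631.1, an intronic transcript at an unscaled 0.944 CPM without and 0.198 CPM with A-485, and reads of overlapping genes may be split between them.

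FCRLA fell in all 3 treated libraries. Its TMM-scaled CPM were 30.6, 27.2 and 27.3 untreated and 16.0, 14.1 and 12.7 with A-485, from counts of 227, 179 and 161 against 144, 143 and 125. The groups did not overlap. The log2 fold change was -0.997 ± 0.12 (SE) with an adjusted p of 5.17e-06 by edgeR, and -0.59 with library sizes alone. FCRLB, the paralog of FCRLA, fell from 801 ± 40.0 to 106 ± 8.02 CPM (SD, n = 3), a log2 fold change of -2.91 ± 0.06 (SE).

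For MS4A1, few reads were counted in Karpas-422 and the call was marginal. Counts were 55, 55 and 30 untreated and 37, 49 and 53 with A-485, or 7.41, 8.35 and 5.08 against 4.12, 4.82 and 5.38 TMM-scaled CPM. The lowest untreated library lay below the highest treated one, so the groups overlapped. The log2 fold change was -0.55 ± 0.21 (SE) with an adjusted p of 0.0286 by edgeR. With library sizes alone it was -0.14, with an adjusted p of 0.556, and the call was also lost without A-485 replicate 1, without A-485 replicate 2 or without untreated replicate 2, when the log2 fold change was -0.46, -0.56 and -0.41.

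CD37 was the gene that rose. Its TMM-scaled CPM were 180, 159 and 155 untreated and 217, 204 and 212 with A-485, and the groups did not overlap. The counts behind these values were 1336, 1047 and 918 against 1948, 2077 and 2093. The log2 fold change was 0.35 ± 0.06 (SE) with an adjusted p of 0.000144 by edgeR, and 0.76 with library sizes alone. CD37 overlaps on the opposite strand with TEAD2, at an unscaled 0 CPM in both Karpas-422 groups, and with AC011450.1, at 19.8 CPM untreated and 12.6 CPM with A-485. The strand of the libraries is not given, so reads of opposite genes cannot be told apart.

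The signalling chains of the B cell receptor did not pass the test. CD79A had counts of 4661, 3691 and 3835 untreated and 5681, 5256 and 4965 with A-485, which TMM scaling turned into 628, 560 and 649 against 632, 517 and 504 CPM. The groups overlapped, and the log2 fold change was -0.15 ± 0.09 (SE) with an adjusted p of 0.135 by edgeR. The sign depended on the scaling, at 0.25 with library sizes alone, and without A-485 replicate 1 the gene was called lower at -0.27. CD79B had 39.5, 27.2 and 50.3 CPM untreated and 47.0, 33.0 and 33.8 CPM with A-485. Its log2 fold change of -0.04 ± 0.23 (SE, adjusted p of 0.891 by edgeR) was smaller than its error.

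CD72 and CD38 had too few counts for the test in Karpas-422, and their few counts differed in opposite directions. CD72 had 0 counts in each of the 3 untreated libraries and 4, 5 and 3 counts with A-485. With the untreated group set to the 3 counts that a count of 0 allows, it was 2.74-fold higher with A-485 on TMM-scaled library sizes. On unscaled ones it was 3.64-fold higher. Neither value is a lower limit, because the counting error of the 12 treated reads is not included. TESK1, which shares 509 bases with CD72 on the opposite strand, was at an unscaled 3.05 CPM untreated and 10.8 CPM with A-485, and its part in the CD72 counts was not tested. CD38 had 3, 5 and 4 counts untreated and 0, 1 and 1 with A-485, so 12 reads stood against 2. The ratio was 8.74-fold lower with A-485, with a 95% counting interval (exact Clopper-Pearson) of 1.95 to 80.4.

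**Figure D2:**
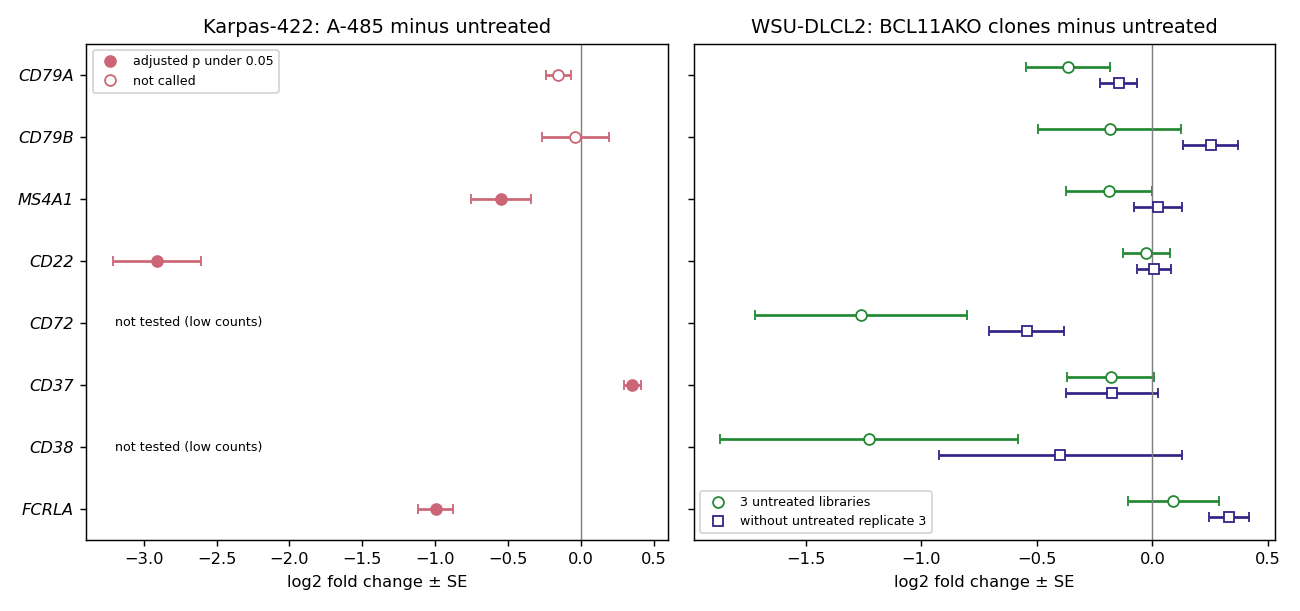
Log2 fold change ± SE of each gene tested, for A-485 against untreated Karpas-422 (left; filled where the adjusted p is under 0.05) and for the BCL11A knockout clones against untreated WSU-DLCL2 (right; circles with all 3 untreated libraries, squares without untreated replicate 3). On the left CD22 lies at -2.91 and CD37 at 0.35, and on the right CD72 moves from -1.26 to -0.54 when replicate 3 is left out.

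Other genes of the same surface and signalling systems moved in both directions in Karpas-422, where 71.4% of all genes tested were called. Of 30 further B cell surface genes, 18 were tested, of which 6 were higher and 8 lower, with a median log2 fold change of -0.33 against 0.08 over all genes. CD52, a small glycosylated surface antigen and the target of alemtuzumab, rose from 217 ± 8.99 to 762 ± 38.4 CPM (SD, n = 3), and FCRL1, an activating Fc receptor-like protein, from 15.9 ± 1.33 to 89.6 ± 1.64. LY86, the partner of the receptor CD180, fell from 373 ± 19.2 to 120 ± 5.89 CPM. With library sizes alone the list's median was 0.07, below the 0.49 of all genes, and the split was 8 higher and 6 lower.

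Of 19 signalling partners, 15 were tested, with 5 higher and 8 lower and a median of -0.23. With library sizes alone 7 were higher and 6 lower, at a median of 0.17. The kinase FYN rose from 9.48 ± 1.48 to 43.1 ± 0.620 CPM. The phospholipase PLCG2, which acts below the B cell receptor, fell by 0.82 ± 0.05 (SE) on the log2 scale from 1995 ± 88.4 CPM, and the kinase BTK by 1.14 ± 0.07 from 175 ± 14.8 CPM. Of 15 paralogs of the 9 genes, 6 were tested, with 2 higher and 3 lower. The tetraspanin CD53 rose by a log2 fold change of 0.68 ± 0.08 (SE), and CD82, another tetraspanin, changed by -0.66 ± 0.11.

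Among these 4 lists, regulators of B cell genes had the most one-sided split, with 9 lower and 1 higher of 14 tested and a median log2 fold change of -0.62. Over all genes tested, 33.7% were called lower and 37.6% higher. IRF8, a transcription factor of germinal centre B cells, fell from 571 ± 16.7 to 97.4 ± 3.36 CPM. POU2F2, which encodes the octamer-binding factor OCT2, fell from 1820 ± 25.6 to 398 ± 7.73 CPM, and the ETS factor SPIB from 347 ± 12.2 to 114 ± 5.48 CPM. Each named fall and rise kept its direction with library sizes alone, when the list's split was 6 lower and 4 higher. The adjusted p of the 12 genes named from these lists was at most 0.000104 by edgeR (n = 3 per group).

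The second comparison asked whether the clones labelled BCL11A knockout differed from untreated WSU-DLCL2. None of the 8 genes tested passed an adjusted p of 0.05 by edgeR, and 0% of 16152 genes did. At an unadjusted p under 0.05, 1117 genes passed, and CD72 was the only one of the 8. DESeq2 called 43 genes higher and 254 lower and limma-voom 2 lower, with none of the 8 among them. TMM-scaled CPM did not overlap between the clones and the untreated libraries for CD72 and CD79A, 2 of 8 genes, where 16.5% of all genes tested did not overlap.

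CD72 and CD38 had the largest fold changes, and their order differed between alternatives. CD72 was at 31.0, 27.9 and 86.2 TMM-scaled CPM in untreated replicates 1, 2 and 3 and at 18.4, 24.5 and 17.5 CPM in clones 1, 2 and 3. Each of the 3 clones lay below each untreated library, and untreated replicate 3 lay far above the other two. The log2 fold change was -1.26 ± 0.46 (SE) with an adjusted p of 0.652, and without untreated replicate 3 it was -0.54 ± 0.16 with an adjusted p of 0.166, both by edgeR.

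CD38 followed a similar pattern with more spread. It was at 38.2, 37.0 and 125 CPM in the untreated libraries and at 14.9, 49.9 and 20.5 CPM in the clones, where clone 2 lay above untreated replicates 1 and 2. The log2 fold change was -1.23 ± 0.64 (SE, adjusted p of 0.804 by edgeR) and -0.40 ± 0.53 without untreated replicate 3. Without clone 2 it was -1.91. CD79A was at 462, 455 and 682 CPM untreated and at 383, 417 and 442 CPM in the clones. Its log2 fold change was -0.36 ± 0.18 (SE, adjusted p of 0.785 by edgeR) and -0.15 ± 0.08 without that library.

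MS4A1, CD22, CD37, CD79B and FCRLA overlapped between the groups. MS4A1 was at 2521, 2518 and 3698 CPM untreated and at 2261, 2594 and 2815 CPM in the clones, and CD22 lay between 1093 and 1209 CPM in all 6 libraries. CD22 and CD37 had log2 fold changes of -0.03 ± 0.10 and -0.18 ± 0.19 (SE), and of 0.0056 and -0.17 without untreated replicate 3. For CD37 the clones differed, as the log2 fold change was -0.020 without clone 1 and -0.38 without clone 2. CD79B changed sign, from -0.19 ± 0.31 with all libraries to 0.25 ± 0.12 without untreated replicate 3, when its adjusted p was 0.316 by edgeR. FCRLA was at 335, 333 and 514 CPM untreated and at 399, 400 and 459 CPM in the clones. Its log2 fold change was 0.09 ± 0.20 (SE), and 0.33 ± 0.08 with an adjusted p of 0.123 by edgeR without untreated replicate 3.

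**Figure D3:**
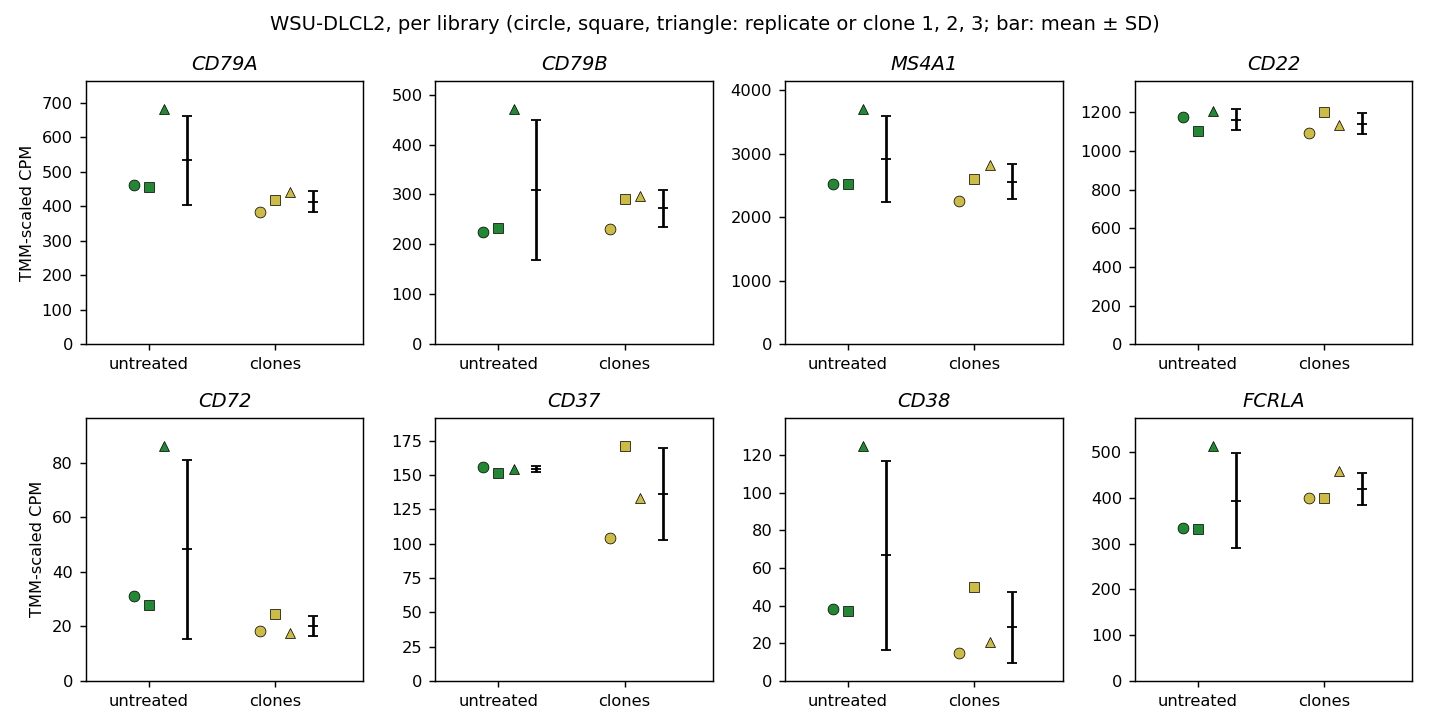
TMM-scaled CPM of 8 genes in untreated WSU-DLCL2 (green) and the BCL11A knockout clones (yellow), each axis starting at 0, with bars at the mean ± SD of 3 libraries. The green triangle, untreated replicate 3, is the highest point for 7 of the 8 genes, the exception being CD37, where clone 2 is highest at 171 CPM.

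Untreated replicate 3 thus bore on most of these values. A chi-square per gene between untreated replicates 1 and 2 was 2.66, and between replicate 3 and the other two it was 201 and 212. Its TMM-scaled log2 level over the mean of replicates 1 and 2 was 1.72 for CD38, 1.53 for CD72, 1.04 for CD79B, 0.62 for FCRLA, 0.57 for CD79A, 0.55 for MS4A1, 0.08 for CD22 and 0.01 for CD37. The size of the CD38 difference exceeded that of 95.3% of genes, and that of CD72 exceeded 93.3%. For 7 of 8 genes replicate 3 was the highest of the 6 libraries, which held for 36.6% of all genes. In unscaled CPM the 5 plasma cell markers summed to 767 there and to 264 and 262 CPM in replicates 1 and 2, most of it JCHAIN at 707 against 241 and 239 CPM. XBP1 was also higher there, at 58.7 against 16.3 and 16.8 CPM, but IRF4 was lower, at 1.13 against 6.29 and 5.98 CPM, and PRDM1 and SDC1 were under 0.4 CPM in all 3. In clones 1, 2 and 3 JCHAIN was at 358, 628 and 417 CPM and IRF4 at 0.539, 0.286 and 0.895 CPM. XBP1 in the clones was at 7.58, 12.4 and 21.7 CPM. In WSU-DLCL2 with A-485, in libraries of the shallow kind, JCHAIN had a mean of 1065 CPM. The part of these differences in the result was not tested. Without replicate 3, 351 of 16607 genes (2.11%) were called and none of the 8.

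The neighbouring gene lists gave no call in the clones with all untreated libraries. Without replicate 3, 1 of 23 tested surface genes was higher and 2 were lower. CD81, a tetraspanin of the B cell surface, was at 256 ± 4.75 CPM in the clones (SD, n = 3) and at 356 and 358 CPM in the remaining 2 libraries. CD83 was at 70.7 ± 10.2 against 128 and 132 CPM, and FCRL2 at 17.9 ± 3.58 against 5.92 and 7.72 CPM. Among 16 tested partners 1 was higher and 3 were lower, CD81 among the latter. The kinase SYK had a log2 fold change of 0.70 ± 0.06 (SE), and ST6GAL1, the sialyltransferase that makes the ligand of CD22, one of -0.60 ± 0.07. None of 9 paralogs and none of 14 regulators was called.

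The third comparison set the lines side by side under A-485, as groups of different lines with the same treatment and libraries of like depth. CD38, CD22, MS4A1, CD72 and FCRLA were lower in Karpas-422 than in WSU-DLCL2, and CD37 and CD79B were higher. That is 5 lower and 2 higher of 8 tested by edgeR, where 72.4% of 12472 genes were called, 34.3% as lower and 38.1% as higher. The Karpas-422 libraries are the treated ones of the first comparison. The line and any difference in how the libraries of each line were made cannot be told apart.

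CD38 showed the widest gap. It had 0, 1 and 1 counts in Karpas-422 and 208, 194 and 209 in WSU-DLCL2, a 397-fold lower level in Karpas-422 with a 95% counting interval of 109 to 3283. CD22 had 13, 11 and 4 counts against 222, 308 and 272, and its log2 fold change was -5.19 ± 0.22 (SE). MS4A1 had 37, 49 and 53 counts against 287, 278 and 278, a log2 fold change of -2.98 ± 0.12. None of these groups overlapped.

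CD37 showed the opposite order. It was at 242, 230 and 239 CPM in Karpas-422 and at 17.2, 16.5 and 17.2 CPM in WSU-DLCL2, a log2 fold change of 3.80 ± 0.07 (SE, adjusted p of 7.33e-18 by edgeR). CD72 (9, 18 and 12 counts in WSU-DLCL2) and FCRLA were lower in Karpas-422, with log2 fold changes of -2.04 ± 0.41 and -1.22 ± 0.11. CD79B was at 52.5, 37.1 and 38.0 against 6.99, 24.0 and 12.2 CPM. Its log2 fold change of 1.55 ± 0.45 had an adjusted p of 0.0320 by edgeR, and the call was lost without Karpas-422 replicate 1, 2 or 3 or WSU-DLCL2 replicate 3, when it was 1.38, 1.64, 1.63 and 1.43. It was also lost with no filter on low counts, at 1.52. CD79A did not pass, at 618 ± 76.8 against 547 ± 153 CPM (SD, n = 3) and an adjusted p of 0.563 by edgeR.

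Between the lines, where 72.4% of all genes tested were called, the neighbouring lists also went both ways. Of 22 tested surface genes 10 were higher and 10 lower in Karpas-422, with a median log2 fold change of 0.00 against 0.07 over all genes. CD52 was at 855 ± 39.6 against 67.3 ± 0.521 CPM, and CD83 at 5.13 ± 1.24 against 601 ± 32.9 CPM. CD48, the ligand of CD244, had 0 counts in Karpas-422 and 5478 in WSU-DLCL2. It was 2371-fold lower when 3 counts were taken for the Karpas-422 group. Among 14 partners 8 were higher and 4 lower, with the SRC-family kinases LYN (34.5 against 284 CPM) and BLK (77.4 against 191 CPM) lower and FYN (1251 against 30 counts in 3 libraries) higher.

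The paralogs gave 3 higher and 4 lower of 8, with FCRLB at 119 against 3.95 CPM, CLEC2D at 0.190 against 24.5 CPM and the tetraspanin TSPAN33 at 2.18 against 32.9 CPM. FCRLB was thus higher in Karpas-422 while FCRLA was lower. Of 14 regulators 9 were higher and 4 lower in Karpas-422. The coactivator POU2AF1 was at 7153 ± 79.2 against 1536 ± 48.8 CPM (SD, n = 3), SPIB at 128 against 25.5 CPM and POU2F2 at 447 against 151 CPM. All genes named from the lists for this comparison passed edgeR's test at an adjusted p of at most 1.17e-11.

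For WSU-DLCL2 with and without A-485 the values are given side by side in unscaled CPM with no test, because the treated libraries are of the shallow kind and the untreated ones of the deep kind. CD79A was nearly equal in mean with all libraries, at 377, 687 and 532 CPM with A-485 and 461, 449 and 693 CPM untreated. Without untreated replicate 3 its untreated mean was 455 CPM, 0.855 times that with A-485. CD38 was at 31.1, 27.4 and 31.1 CPM with A-485 and 2.25 times as high in mean untreated, or 1.25 times without untreated replicate 3. MS4A1 was at 42.9, 39.2 and 41.4 CPM with A-485, from 287, 278 and 278 counts, and 70.9 times as high untreated, or 60.7 times without that replicate.

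The other genes were between these. The untreated mean was 29.8 times as high for CD22, 25.7 times for CD72, 22.2 times for CD79B, 10.9 times for FCRLA and 9.35 times for CD37. Without untreated replicate 3 it was 28.96, 15.4, 16.2, 9.15 and 9.25 times as high in the same order. In the A-485 group CD72 rested on 9, 18 and 12 counts and CD79B on 45, 167 and 79.

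The ratio varied with the number of annotated transcripts of a gene, over all protein-coding genes whose mean in untreated WSU-DLCL2 was 10 CPM or more. The median log2 ratio of A-485 over untreated was 2.24 for genes with 1 transcript, 1.09 with 2 to 3, -0.51 with 4 to 6, -1.94 with 7 to 10, -2.46 with 11 to 20 and -2.59 with more. CD79A has 3 annotated transcripts, CD38 5, CD79B 6, CD72 11, MS4A1 12, FCRLA 14, CD37 15 and CD22 34. The part of the library kind in these ratios was not tested, and A-485 and library kind cannot be told apart in this line. In the Karpas-422 comparison, within 1 kind of library, the median log2 fold change ran from -0.55 for protein-coding genes with 1 transcript to 0.36 with 11 to 20 and 0.65 with more than 20. CD37, with 15 transcripts, had a log2 fold change of 0.35 there, near the median of its class. MS4A1, FCRLA and CD22, in the classes with a median above 0, had log2 fold changes of -0.55, -0.997 and -2.91. CD79A and CD79B, at -0.15 and -0.04, lay above the medians of their classes, which were -0.39 and -0.23.

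**Figure D4:**
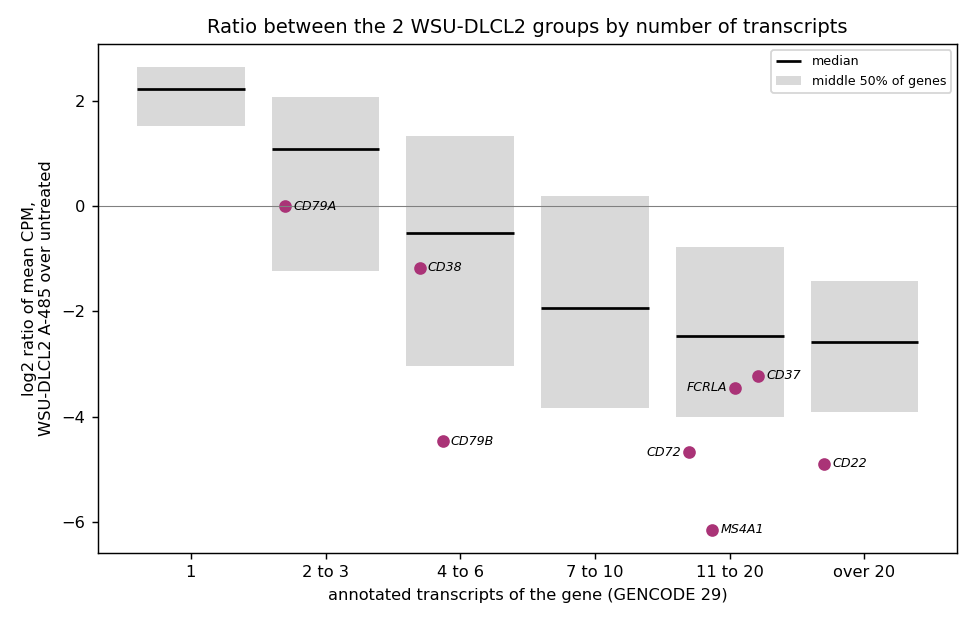
Log2 ratio of mean CPM between WSU-DLCL2 with A-485 and untreated WSU-DLCL2 for 8 genes (points), over the number of annotated transcripts, with the median (line) and middle 50% (grey) of all such protein-coding genes in each class. CD79A, CD38, FCRLA and CD37 lie within the grey ranges, and CD79B, CD72, MS4A1 and CD22 lie below them, although CD72 lies within its range, at -3.94, without untreated replicate 3.

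For the 6 genes tested in both comparisons within a line, the protein-coding gene nearest in pattern was found by Euclidean distance in log2 CPM, centred within each line, over 12 libraries and 8912 genes. The nearest was POLD4 for CD22 (distance 1.13), VAMP2 for CD37 (0.305), OGFOD3 for CD79A (0.289), USF2 for CD79B (0.545) and PDRG1 for FCRLA (0.263). The median distance from these 6 genes to all others was 1.44 to 3.67. POLD4 had a log2 fold change of -2.82 with A-485 in Karpas-422, beside -2.91 for CD22, and of 0.60 in the clones, beside -0.03 for CD22. The distance used these same libraries, so the choice of the nearest gene itself favours a like fold change.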

How the data were processed

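Total RNA of 2 lymphoma lines was sequenced, and the authors deposited raw read counts per Ensembl gene for 15 libraries from 17 sample records, as 3 sequencing runs of untreated WSU-DLCL2 replicate 3 share 1 file. The tools STAR 2.5.3a and RSEM and the build GRCh37 (hg19) are listed per the submitters' processing notes. For the order of these steps, annotation, kit and strand nothing is given in the sources used here. The 5 summary lines of each file, 60.9% to 70.2% of the reads in shallow libraries and 27.3% to 29.7% in deep ones, stayed out of library sizes. Symbols came from a gene name table and GENCODE 29 (on GRCh38), which also gave transcripts and exon lengths; 52526 of 63677 genes had a symbol. No coordinates on hg19 are given.

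Each comparison was fitted on the whole table by robust quasi-likelihood in edgeR 4.0.16 (R 4.3.3), after TMM scaling and filterByExpr, with two-sided tests, Benjamini-Hochberg adjustment and a threshold of 0.05. A fit held only the groups it compared. Standard errors were taken as log2 fold change over the square root of F. Alternatives were other scalings, no filter, DESeq2 1.42.0, limma-voom (limma 3.58.1), the replicate number as a block, and each library left out. Levels and ratios without untreated WSU-DLCL2 replicate 3 were added after seeing the data. Fits were also run on simulated data, but the outcome is not given here and no result rests on it. Libraries of a group were compared pairwise by chi-square, divided by the number of genes having 20 counts or more in that pair. Genes named beside the 9 were, per fixed list and comparison, up to 3 called members with the smallest adjusted p. The 9 genes and the lists were chosen with earlier results of these data known. Ratios on few counts use a floor of 3 counts over a group. Reads carry no molecular identifiers, so intervals cover counting error only. Of the listed T cell markers 1 of 6 did not match a symbol, and the motifs planned for protein sequences were not searched. The gene nearest in pattern to MS4A1 is not reported here.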

Additional observations from a re-analysis of the deposited data

Results flagged for a closer look

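For CD37 and CD72 the A-485 libraries lay on opposite sides of the untreated ones in the lines. In Karpas-422, CD37 was at an unscaled 242 CPM in mean with A-485 against 143 CPM untreated, with every treated library higher. In WSU-DLCL2 it was at an unscaled 16.5 CPM against 154 CPM, with every treated library lower. With TMM scaling the Karpas-422 means were 211 and 165 CPM, a log2 fold change of 0.35. Protein-coding genes with 11 to 20 transcripts, the class of CD37, had a median of 0.36 there. CD72 was at an unscaled 0.475 CPM with A-485, from 12 counts, against 0 untreated in Karpas-422. In WSU-DLCL2 it was at an unscaled 1.89 CPM against 48.7 CPM, or 29.2 CPM without untreated replicate 3. The difference between the lines was not tested for either gene. In WSU-DLCL2 the treated and untreated libraries are of different kinds, so treatment and library kind cannot be told apart.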

How the results depend on the processing

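In Karpas-422, 4 of 6 genes were called, against 3 to 5 under other scalings, limma-voom or with a library left out. With no filter 7 of 8 were called, which added CD72, CD38 and CD79A. DESeq2 tested 8 genes and called 3, namely CD22, FCRLA and CD37, so CD72 and CD38 were not called there. CD79A turned to 0.25 with library sizes alone and was called lower with DESeq2's size factors (-0.20) and with no filter (-0.17). CD79B turned to 0.37 with library sizes alone, and with a library left out it ran from -0.25 to 0.16. MS4A1 was not called with DESeq2 (adjusted p 0.0872). In the clones no gene of the list was called under any alternative run, although DESeq2 called 43 of all genes higher and 254 lower and edgeR with no filter 1 higher and 19 lower. With a library left out the log2 fold changes there ran from -0.28 to 0.024 for MS4A1, -0.067 to 0.0056 for CD22, -0.36 to 0.25 for CD79B, -0.010 to 0.33 for FCRLA, -1.91 to -0.40 for CD38, -1.52 to -0.54 for CD72 and -0.38 to -0.020 for CD37. CD38 lay below CD72 with limma-voom (-1.10 and -1.01) and the replicate block (-1.19 and -1.07). Between the lines with A-485, CD79A ran from -0.025 to 0.32. The replicate numbers were not taken as pairs, since the correlations of same-numbered deviations were 0.02, 0.06 and -0.04 in Karpas-422, 0.10, 0.03 and 0.23 in WSU-DLCL2 and -0.18, -0.10 and 0.00 between the lines. With the replicate block 4 genes were called in Karpas-422, 0 in the clones and 6 between the lines, where CD79B was not called (adjusted p 0.101). CD22, FCRLA and CD37 in Karpas-422 were called in the same direction under every alternative run, from -3.27 to -2.51 for CD22. CD22 and MS4A1 rest on 4 to 57 counts in each Karpas-422 library, and CD72 and CD38 on 0 to 5, which limits the precision of their fold changes.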
